A study of Mus musculus with 9 samples.

Results

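Steroid hormones of the adrenal gland and the gonads are made from cholesterol by a short series of enzymes, and the 8 genes described here encode the entry protein, the enzymes and the master regulator of that series. Star carries cholesterol into mitochondria, Cyp11a1 cleaves its side chain, and Hsd3b1 and Cyp17a1 act on the product. Cyp21a1, Cyp11b1 and Cyp11b2 complete corticosteroid synthesis in the adrenal cortex, and Nr5a1 (steroidogenic factor SF-1) is the nuclear receptor that drives most of these genes. The members were chosen by gene name, as all non-control probes carrying one of the 8 names on the arrays of postnatal day 3 (PND3), and the rule itself used no measured value, although it was set with earlier results of these data known. Of the 8 genes, 7 had a probe under their name, with 10 probes in all among 41174 on the array, which measured 20915 genes. Cyp11b1, the neighbour and close paralog of Cyp11b2, had no probe under that name and is not analysed here.

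The series compared tissue labelled pancreas from mice homozygous for the Glis3zf allele of the transcription factor Glis3 with that of wild-type (WT) mice. Both were of strain C57BL/6. At PND3, RNA of 2 mutant pups formed the mutant pool and RNA of 2 WT pups formed the WT pool, each amplified from 500 ng. The 2 pools were labelled with different dyes and mixed on each of 2 Agilent arrays, both on 1 slide. The array called the first here held mutant RNA in Cy3 and WT RNA in Cy5, and the second held the dyes exchanged. The arrays are thus a technical pair of 1 pool per genotype, so the spread between them is technical, no p-value is given, and differences between pups cannot be told apart from differences between genotypes. The sex of the pups was not given in the labels. The 3 WT and 4 mutant samples of embryonic day 15.5 were not analysed for these genes, since their table was not paired with gene names here.

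The labelled tissue was set against defining markers, and several markers of pancreas were not well above background while all those of kidney were. All 15 kidney markers were well above background in every channel. Their summed signal on the first and second array was 354453 and 330726 in the mutant pool and 384075 and 366351 in the WT pool. Of the 14 acinar markers with a probe, 11 were well above background in every channel and Cela2a, Amy2 and Ptf1a in none. The acinar list summed to 2075 and 1745 in the mutant pool and 2149 and 1824 in the WT pool. Of the 12 islet markers, 6 (Gcg, Ppy, Mafa, Neurod1, Pcsk1 and Slc30a8) were well above background in no channel. The islet list summed to 535 and 528 in the mutant pool and 581 and 523 in the WT pool. Averaged over both arrays, the brightest kidney marker, Cdh16, gave 94633 in the mutant and 96266 in the WT pool. The dimmest, Pax2, gave 48.8 and 41.1. The brightest acinar marker, Ctrb1, gave 693 and 640, and the brightest islet marker, Nkx6-1, gave 295 and 314. These sums and signals describe each list in each pool and do not measure one list's amount against another's. In bulk RNA, fewer cells of a type and less RNA per cell cannot be told apart.

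The probes are 60-base oligonucleotides, and those on which the results turn are given as the array files spell them, 5′ to 3′. Hsd3b1 is shown as the measured member with the largest difference, Cyp17a1 as the brightest probe, Nr5a1 and Cyp11a1 because their probes gave unequal signals, and Cyp11b2 as the probe at background. The P450 probes are whole and the others are the first 30 bases of 60.
Hsd3b1: tagacacagagaccaacttggtatctttct
Cyp17a1: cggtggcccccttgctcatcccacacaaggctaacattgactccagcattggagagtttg
Nr5a1, brighter probe: ccagaggataccatgagagtgggtagggca
Nr5a1, dimmer probe: agctcagactcagaatttggcccttttaga
Cyp11a1, brighter probe: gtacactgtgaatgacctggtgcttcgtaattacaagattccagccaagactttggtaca
Cyp11a1, dimmer probe: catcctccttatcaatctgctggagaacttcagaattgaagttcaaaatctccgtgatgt
Cyp11b2: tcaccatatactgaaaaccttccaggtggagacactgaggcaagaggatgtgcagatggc
None of the 10 probes shared a run of 16 bases with any other probe on the array. Their content of G and C ranged from 36.7% for the brighter Star probe to 58.3% for Cyp21a1. How far each probe binds transcripts of related genes was not tested.

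No measured member was 2-fold apart. Of the 6 measured, 3 (Star, Cyp11a1 and Cyp21a1) lay in the dimmest of 5 brightness classes of equal size, Hsd3b1 and Nr5a1 in the next and Cyp17a1 in the middle one. Of the 10 probes, 7 (70.0%) were well above background in all 4 channels, meaning each pool on each array, against 70.4% of all probes. Of the 7 genes, 6 were measured, meaning that their brightest probe was well above background in at least 1 pool on both arrays. None of the 6 passed a fold of 2 with 1 sign on both arrays, where 0.191% of the 20915 genes measured did (0.0335% higher and 0.158% lower in the mutant pool). By the scanner software's own ratios none of the 6 passed either, against 0.837% of all genes. With so rare a background, a count of 0 among 6 genes says nothing particular about them. Their median log2 ratio of mutant over WT was 0.00, against -0.014 over all genes measured. Hsd3b1 stood lower in the mutant pool, Nr5a1 and Cyp17a1 slightly higher, and Star, Cyp11a1 and Cyp21a1 within the gap between the arrays.

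**Figure D1:**
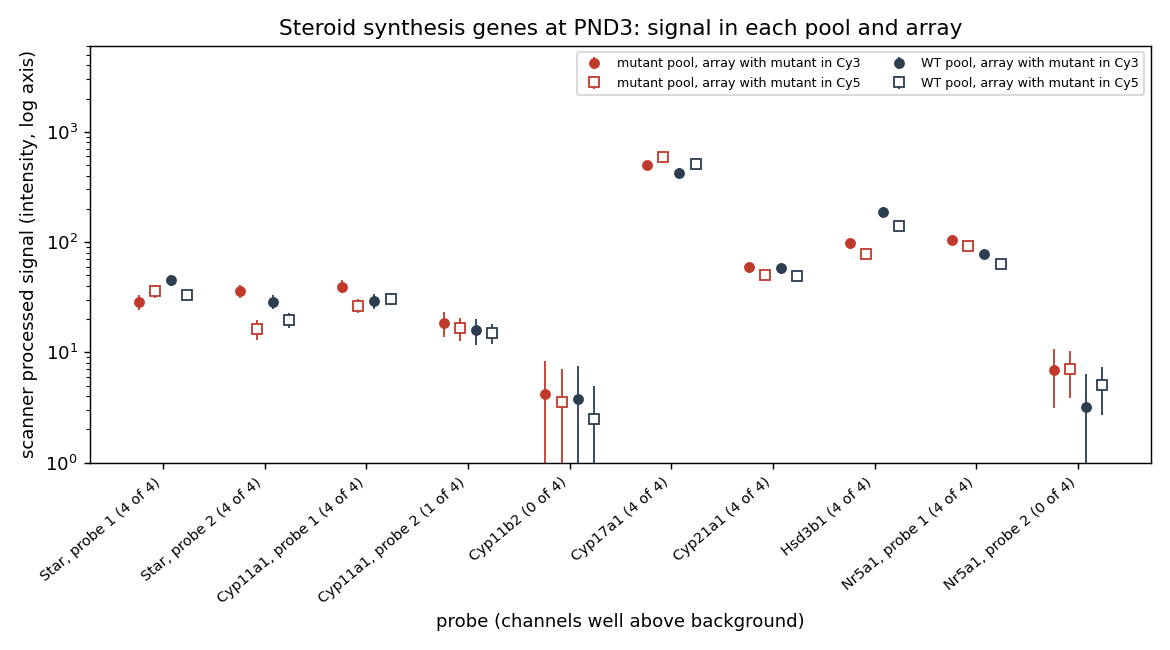
Scanner processed signal (intensity, log axis) of each of the 10 probes in the mutant pool (red) and the WT pool (dark), with filled circles for the first array and open squares for the second; bars are the scanner software's error and run off the axis where they reach 1 or less. Both red points of Hsd3b1 lie below both dark points (97.8 and 78.2 against 187 and 139), Cyp17a1 lies near 500 in both pools, and Cyp11b2 and the dimmer Nr5a1 probe lie below 10 with 0 of 4 channels well above background.

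Ratios are given in 2 forms. The first is the log2 ratio after normexp background correction with an offset of 50 and loess normalization, an offset that draws dim probes toward 0. The second is the ratio of the scanner software's own processed signals, which has no such offset and comes with the software's error. Across all genes measured, the first form differed between the arrays by a median of 0.106 and by 0.322 at the 95th percentile. The sign was the same on both arrays for 68.7% of them. Shares of all genes higher or lower on both arrays are not given here. The lists' counts of such genes below therefore describe each list only. Signals are processed scanner intensities and do not measure one gene's amount against another's.

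Star, the cholesterol carrier of the first and rate-limiting step, had 2 probes, both well above background in all 4 channels. The brighter Star probe gave signals of 28.7 and 35.9 in the mutant pool on the first and second array, and of 45.1 and 33.0 in the WT pool. The pools overlapped, because the mutant signal was lower on the first array and higher on the second. Its log2 ratio was -0.21 and -0.01, with a mean of -0.11 (SD 0.14 between arrays), and the scanner ratio was -0.65 (error 0.28) and 0.12 (error 0.25). The dimmer Star probe gave 35.8 and 16.3 in the mutant pool and 28.7 and 19.7 in the WT pool. Its log2 ratios of 0.11 and -0.10 had opposite signs, with a mean of 0.01. Neither probe therefore showed a difference beyond the gap between the arrays.

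Cyp11a1, the mitochondrial enzyme that turns cholesterol into pregnenolone, also had 2 probes. Its brighter probe gave signals of 39.5 and 26.6 in the mutant pool and 29.2 and 30.5 in the WT pool, so the pools overlapped. The log2 ratio was 0.11 on the first array and -0.14 on the second, and the scanner ratio was 0.44 (error 0.29) and -0.20 (error 0.28). The sign thus depended on the array in both forms of the ratio. The dimmer Cyp11a1 probe gave 18.6 and 16.6 in the mutant pool and 15.9 and 15.0 in the WT pool, and it was well above background only in the WT pool on 1 array. Its ratio is given as a value only, 0.05 on average.

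Hsd3b1, which converts pregnenolone to progesterone and is the form known from adrenal gland and gonads, had the largest difference of the 6 genes measured. Its single probe gave signals of 97.8 (error 10.4) and 78.2 (error 8.32) in the mutant pool, and of 187 (error 19.0) and 139 (error 14.1) in the WT pool. Both mutant signals were lower than both WT signals, with no overlap. The log2 ratio was -0.66 on the first array and -0.51 on the second, a mean of -0.59 (SD 0.11 between arrays), which is 1.58-fold and 1.42-fold lower in the mutant pool. The scanner ratio was -0.94 (error 0.23) and -0.83 (error 0.22), a mean of -0.88 or 1.85-fold lower. The 2 arrays differed by 0.15, between the median gap of 0.095 and the 95th percentile of 0.284 for the 4183 genes of its brightness class, 1 of 5 of equal size. Of all genes measured, 186 (0.89%), Hsd3b1 included, were at least as low on both arrays as its weaker value.

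Cyp17a1, the enzyme that opens the branch to androgens, had the brightest of the 10 probes. Its signals were 495 and 593 in the mutant pool and 426 and 513 in the WT pool. The mutant signal was the higher one within each array, although the ranges over both arrays overlapped. The log2 ratio was 0.13 and 0.25, with a mean of 0.19 (SD 0.08 between arrays), or 1.14-fold higher in the mutant pool. The scanner ratio was 0.22 (error 0.21) and 0.21 (error 0.21), about as large as its error. Of the genes measured, 10.98% were at least as high on both arrays, so a difference of this size was common between these pools.

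Cyp21a1, the steroid 21-hydroxylase of corticosteroid synthesis, gave nearly equal signals in the pools. They were 59.4 and 50.2 in the mutant pool and 57.8 and 48.9 in the WT pool. The log2 ratio was 0.05 and -0.02, and the scanner ratio was 0.04 on both arrays with an error of 0.24 on each. The gap between pools was thus smaller than the scanner's error on either array. Mice also carry a related pseudogene, whose transcripts this probe cannot be shown to exclude.

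Cyp11b2, the aldosterone synthase of the outer adrenal cortex, was not well above background in any of the 4 channels. Its signals were 4.22 and 3.52 in the mutant pool and 3.75 and 2.48 in the WT pool, each about as large as the scanner's error of 4.20, 3.51, 3.73 and 2.48. Before background subtraction the spot read 59.1 and 60.1 in the mutant pool, over local backgrounds of 50 and 54, and 60.9 and 63.0 in the WT pool, over 58 and 50. No fold is given for it, and these arrays show only that its signal was not distinguishable from background at this sensitivity.

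Nr5a1 had 2 probes that differed in signal. Its brighter probe gave 105 (error 11.0) and 92.9 (error 9.68) in the mutant pool and 77.9 (error 8.36) and 63.2 (error 6.71) in the WT pool. Both mutant signals were above both WT signals, with no overlap. The log2 ratio was 0.22 and 0.30, a mean of 0.26 (SD 0.05 between arrays), which is 1.17-fold and 1.23-fold higher in the mutant pool. The scanner ratio was 0.43 (error 0.22) and 0.56 (error 0.22), a mean of 0.49 or 1.41-fold higher. Of the genes measured, 4.81% were at least as high on both arrays, and 1.97% with the scanner ratios. The dimmer Nr5a1 probe, listed under another transcript record, gave 6.96 and 7.07 in the mutant pool and 3.17 and 5.03 in the WT pool, and it was well above background in no channel. The difference of Nr5a1 in these arrays therefore rests on 1 probe.

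**Figure D2:**
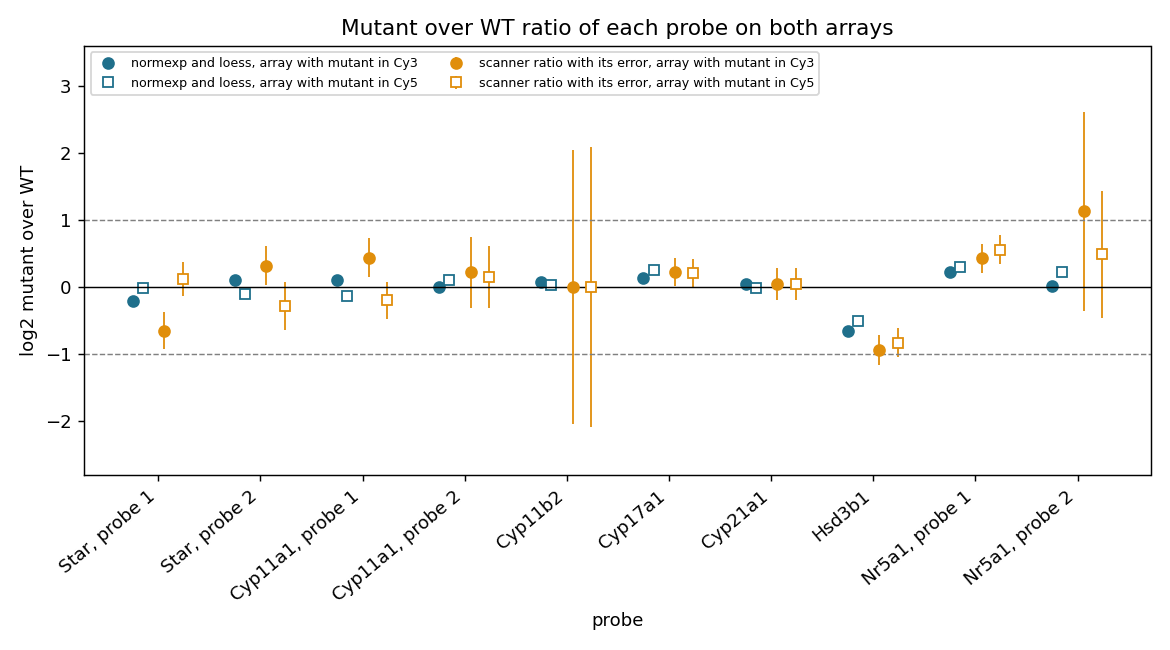
Log2 ratio of mutant over WT for each of the 10 probes on both arrays, after normexp and loess (blue) and as the scanner software's ratio with its error (orange); dashed lines mark 2-fold. Hsd3b1 lies below 0 in all 4 values, Cyp17a1 and the brighter Nr5a1 probe lie above 0 in all 4, and Star probe 2 and Cyp11a1 probe 1 change side between arrays.

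Among themselves the members did not share a direction. By the brightest probe, 2 of the 6 measured genes were higher on both arrays (Cyp17a1 and Nr5a1), 2 lower on both (Hsd3b1 and Star, the latter with opposite signs in the scanner ratio) and 2 of opposite sign (Cyp11a1 and Cyp21a1). The regulator Nr5a1 and the enzyme Hsd3b1 thus lay on opposite sides of 0 in the same pools. The summed signal of the 7 genes with a probe was 830 and 881 in the mutant pool and 827 and 830 in the WT pool. Most of each sum came from Cyp17a1, with 495 and 593 in the mutant pool and 426 and 513 in the WT pool. The sums therefore say little about the other members. Ordered by mean log2 ratio, Hsd3b1 at -0.59 stood apart from Star at -0.11 by more than either gene's SD between arrays. Star, Cyp11a1 at -0.01 and Cyp21a1 at 0.02 differed from one another by less than the SD of Star or Cyp11a1 (0.14 and 0.17). Cyp21a1 had a smaller SD of 0.05, less than its gap to Star. Cyp17a1 at 0.19 and Nr5a1 at 0.26 differed from each other by less than the SD of Cyp17a1 (0.08) but by more than that of Nr5a1 (0.05). Their mean scanner ratios were 0.21 and 0.49.

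**Figure D3:**
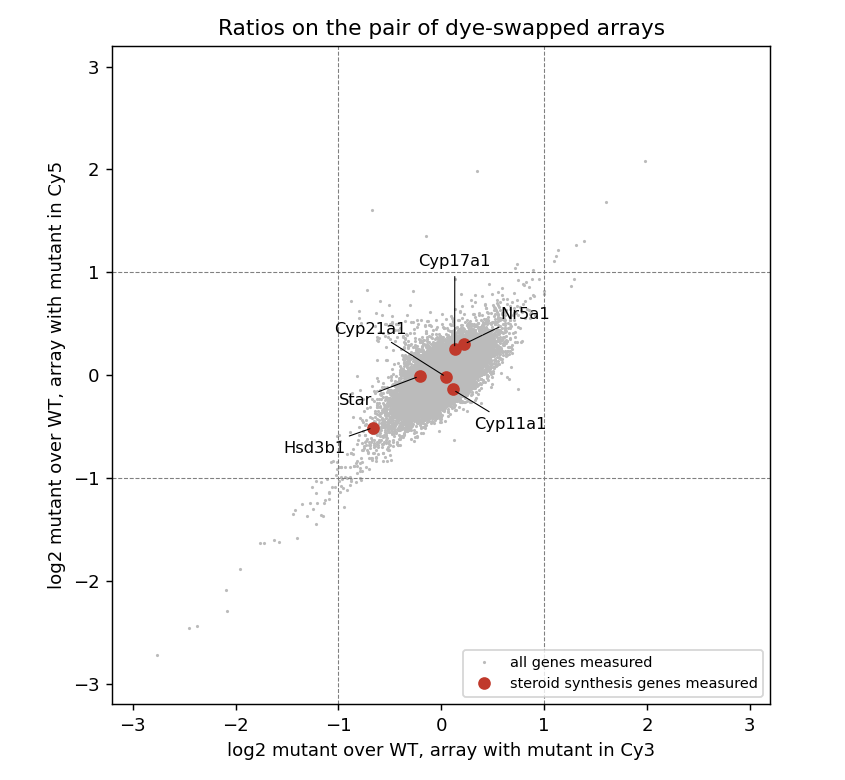
Log2 ratio of mutant over WT on the first array (x axis) against the second (y axis) for all 20915 genes measured (grey) and the 6 measured steroid synthesis genes (red); dashed lines mark 2-fold. Hsd3b1, at -0.66 and -0.51, lies at the lower left edge of the grey cloud, and the other members lie inside it.

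Hsd3b1 belongs to a family of 3-beta-hydroxysteroid dehydrogenases, whose 7 named members all had a probe that was well above background in every channel. None was 2-fold apart. Hsd3b2 was the other low gene, and only by its brightest probe of 3. That probe gave signals of 525 and 511 in the mutant pool and 870 and 703 in the WT pool, with log2 ratios of -0.62 and -0.48. The remaining Hsd3b2 probes stood at 0.01 and -0.01 on average, with signals under 55, so the probes of this gene disagreed. Hsd3b4, the bright kidney form, gave 113911 and 106627 in the mutant pool and 102295 and 92390 in the WT pool. Its log2 ratios were -0.02 and 0.35, which do not share a sign, and with median centring -0.55 and 0.26. The scanner ratios of Hsd3b4 were 0.16 and 0.21. Hsd3b5, known from liver, was bright as well, with 28343 and 25546 in the mutant pool and 24863 and 21425 in the WT pool. It stood at 0.19 and 0.23, and at 0.19 and 0.25 with the scanner ratios, but with median centring at -0.16 and 0.04. Hsd3b3, Hsd3b6 and Hsd3b7 had mean ratios of 0.12, 0.03 and -0.03. The Hsd3b1 probe matched no other probe of the family at more than 44.2% of overlapping bases, whereas the paralogs' transcripts were not compared.

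**Figure D4:**
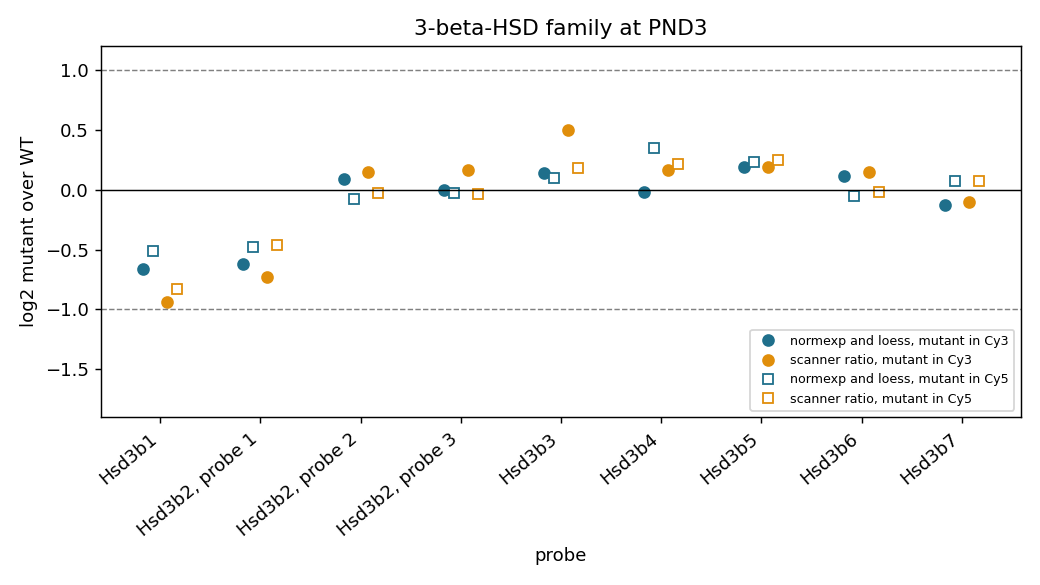
Log2 ratio of mutant over WT for all 9 probes of the 3-beta-HSD family on both arrays, after normexp and loess (blue) and as the scanner ratio (orange); dashed lines mark 2-fold. Hsd3b1 and the brightest Hsd3b2 probe are the lowest, at -0.59 and -0.55 on average, and the other 7 probes have averages between -0.03 and 0.21.

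Steroid P450 enzymes need electrons from redox partners, and all 7 partner genes with a probe were well above background in every channel. None was 2-fold apart, and 4 were lower on both arrays, 2 higher, with a median of -0.03. Cyb5a, the cytochrome that aids the lyase step of Cyp17a1, stood at -0.17 and -0.36. Fdx1 and Fdxr, which serve the mitochondrial enzymes Cyp11a1 and Cyp11b2, had means of -0.13 and -0.03. Por, which serves Cyp17a1 and Cyp21a1, had a mean of -0.02, and Cyb5r3 stood highest at 0.34. These partners serve many P450 enzymes of other tissues as well.

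Cholesterol supply genes were close to equal in the pools. Of 17 measured, none was 2-fold apart, 6 were higher and 4 lower on both arrays, and the median was 0.02. Soat1, which stores cholesterol as esters, had a mean of 0.28. The feedback protein Insig1 had the lowest mean, -0.21, and Scarb1, the lipoprotein receptor of steroid-producing cells, stood at -0.03.

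Of 14 measured transcription factors of the steroid programme other than Nr5a1, none was 2-fold apart, 7 were higher and 5 lower on both arrays, and the median was 0.05. Nr5a2, the paralog of Nr5a1 that acts in ovary, liver and pancreas, had the lowest mean at -0.79, with -1.0 and -0.59 on the arrays. Gata6, a factor of adrenal and gonad cells, stood at -0.32 and Nr4a1, induced by trophic hormones, at -0.26. Nr0b1, the repressor partner of Nr5a1, was not well above background in any channel.

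Of 9 measured hormone receptors and accessory genes, 1 was 2-fold lower and none higher, 6 were lower on both arrays, and the median was -0.06. Amhr2, the receptor of anti-Müllerian hormone in gonads, had log2 ratios of -1.30 and -1.37, from signals of 92.6 and 88.5 in the mutant pool and 355 and 339 in the WT pool. Mrap, the accessory protein of the ACTH receptor that is also known from fat, stood at -0.88 and -1.03, with signals of 111 and 83.7 in the mutant pool and 262 and 245 in the WT pool. Mc2r, the ACTH receptor itself, stood at -0.10 and 0.06. Prlr, the prolactin receptor, and Ghr, the growth hormone receptor, had means of -0.40 and -0.26. Agtr1a, Agtr1b, Fshr and Insr lay between -0.06 and 0.09, and the luteinizing hormone receptor Lhcgr was well above background in no channel.

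Among 19 measured enzymes of later steroid steps, none was 2-fold apart on both arrays and the median was 0.00. Hsd17b2, which inactivates sex steroids, had the highest mean at 0.91, with signals of 558 in the mutant and 262 in the WT pool. Hsd11b2, which inactivates glucocorticoid in collecting duct, had the lowest at -0.70, with signals of 343 and 591. Cyp24a1, which degrades vitamin D, stood at -0.34. Cyp19a1, the aromatase, and Srd5a2 were well above background in no channel. Of 8 steroid receptor and glucocorticoid response genes measured, 5 were lower on both arrays and 1 higher, with a median of -0.07. Esr1, an estrogen receptor, stood at -0.48 and the glucocorticoid receptor Nr3c1 at -0.22. The measured glucocorticoid response genes did not share a direction. Fkbp5 had a mean of 0.28 and Sgk1 of -0.21, while Tsc22d3 (0.19 and -0.13) and Per1 (0.23 and -0.12) had opposite signs on the arrays.

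Of 12 measured adrenal cortex markers, none was 2-fold apart, 7 were lower and 2 higher on both arrays, and the median was -0.04. Beside Mrap, the lowest was Dlk1, a progenitor protein found in many young tissues, with -1.02 and -0.84, and the highest was Soat1 at 0.28. The cortex list summed to 24543 and 21932 in the mutant pool and 28177 and 25770 in the WT pool. Dlk1 had the widest gap of the list, with 2448 and 2378 in the mutant pool and 5024 and 4303 in the WT pool. Chromaffin cells of the adrenal medulla gave 11 measured genes with a median of 0.02. The catecholamine enzyme Th and the factors Hand2 and Insm1 were well above background in no channel. The list summed to 17706 and 15919 in the mutant and 14980 and 13706 in the WT pool. Most of that gap came from 1 gene, Gata3, with 7706.5 and 6845 in the mutant and 5097 and 4944 in the WT pool. Gata3, which is also a collecting duct factor, had the highest mean ratio of the list at 0.54, and Slc18a2 and Chgb stood at -0.14.

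Testis somatic markers had a median of -0.04 over 11 genes, with Lhcgr and Dmrt1 well above background in no channel. Their summed signals were 3506 and 3141 in the mutant and 3631 and 3273 in the WT pool. The lowest were Sox9 at -0.24 and Gata4 at -0.19, and Inhba stood at 0.18. Granulosa markers had a median of 0.05 over 11 genes, with Amhr2 the single gene 2-fold lower, Fst at 0.31 and Foxl2 at 0.10. They summed to 11438 and 9864 in the mutant and 10776 and 9847 in the WT pool. Most of each sum came from Rspo1 (5974 and 5229 in the mutant, 5536 and 4960 in the WT pool) and Wnt4. Foxl2 gave 129 and 55.8 in the mutant and 120 and 45.0 in the WT pool.

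Oocyte markers were lower in the mutant pool. All 15 measured were lower on both arrays, 9 of them at least 2-fold, and the median was -1.18, but only 6 of the 15 were well above background in all 4 channels. Genes that passed through the WT pool alone had to be lower in the mutant pool, so this count describes the pools and tests nothing. Padi6, an oocyte cytoplasmic protein, gave log2 ratios of -2.45 and -2.46, and Ooep, of the same compartment, -1.17 and -1.04. The list summed to 631 and 595 in the mutant pool and 3860 and 3501 in the WT pool. Y-linked genes lay the other way, with Eif2s3y at 1.29, Ddx3y at 0.91 and Kdm5d at 0.37, while Xist, transcribed from the inactive X chromosome, stood at 0.03. Of 9 measured fat markers, 7 were lower and 1 higher on both arrays, 1 was at least 2-fold lower, and the median was -0.27. Their means ran from -1.17 for Ucp1 and -0.95 for Cidea to -0.20 for Fabp4 and 0.12 for Lpl. This count describes the list only. The fat list summed to 61969 and 57646 in the mutant and 73724 and 67039 in the WT pool. Most of each sum came from Fabp4, with 51283 and 48298 in the mutant and 59819 and 54176 in the WT pool. Of the 15 kidney markers, Kap, an androgen-responsive kidney protein, had the lowest mean at -0.59 and the water channel Aqp2 the highest at 0.49. The part of oocytes, ovary, fat and the sex of the pups in the values of Hsd3b1, Nr5a1 and the receptors was not tested.

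**Figure D5:**
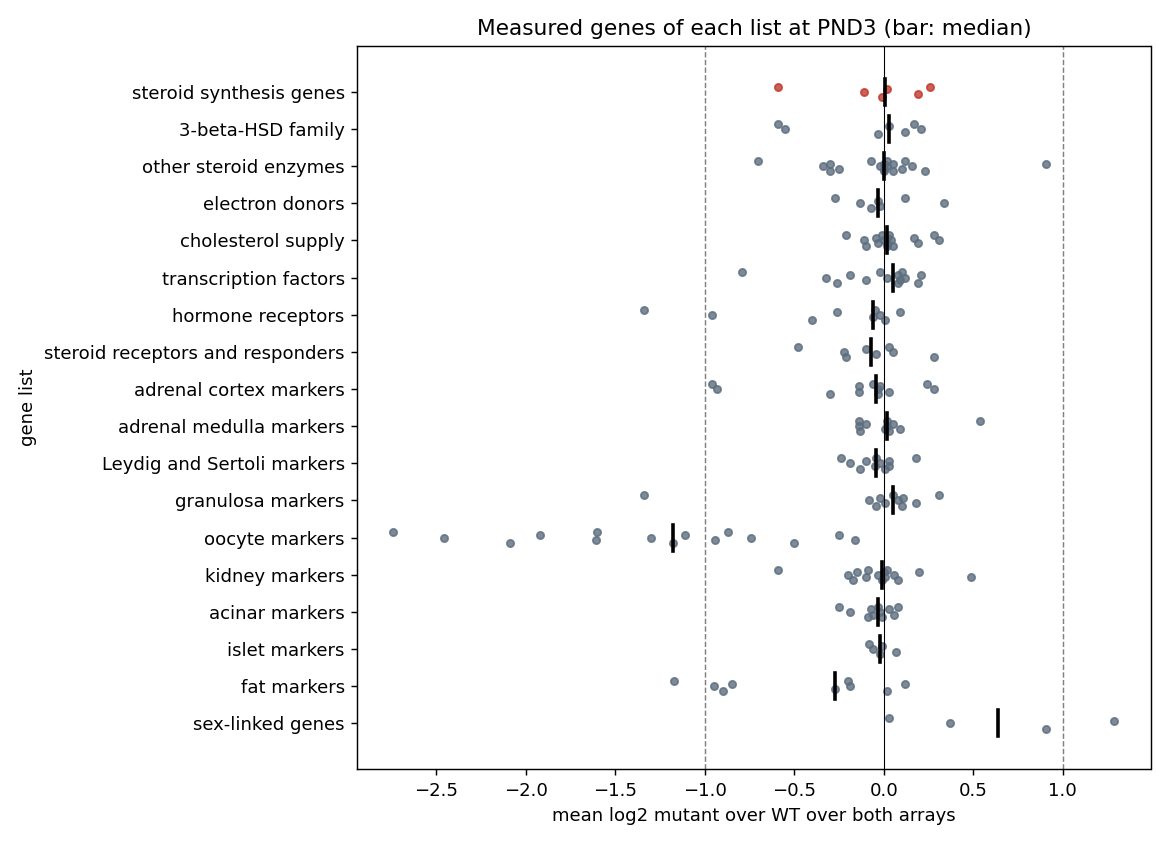
Mean log2 ratio of mutant over WT over both arrays for every measured gene of each list, with the median as a black bar; red marks the steroid synthesis genes and dashed lines mark 2-fold. The steroid synthesis genes spread from -0.59 to 0.26 around a median of 0.00, whereas the oocyte markers have a median of -1.18, the fat markers of -0.27 and the sex-linked genes of 0.64.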

How the data were processed

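The PND3 scanner files deposited by the authors hold spot and background intensities, processed signals and quality flags (other values), per the file headers, and log10 ratios of Cy5 over Cy3 with their errors, per the file headers. The authors' deposited value table gives each array's log2 mutant-over-WT ratio (r = 0.9996 and 0.9997 with the scanner's ratio, median 0). Feature Extraction 8.1 from Agilent is named in the submitters' processing notes, and version 9.1.3.1 in the file headers.

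With R 4.3.3 and limma 3.58.1, background was corrected by normexp (offset 50), ratios were normalized by loess (weight 0 for control spots), and every ratio was turned to mutant over WT. Outlier spots (18 and 26) were left out, and none was saturated. The brightest probe stood for each gene. The steps were tested on simulated data, with changes put only into bright genes and larger than those of the members. That test therefore does not cover dim genes or small differences. RefSeq symbols (GRCm38.p6 table, names only) matched 22951 of 41174 probes.

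Members and lists were chosen with earlier results of these data known. Named genes were all members, and of each list those 2-fold apart or with the largest ratios. Other genes were named for their role after their values were seen. The sex-linked list was added later. Some results on listed genes are not reported here.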

Additional observations from a re-analysis of the deposited data

How the results depend on the processing

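The count of members 2-fold apart was 0 under all 10 alternatives. Hsd3b1 stayed below 0 in each, from -0.88 to -0.51, as did Star (-0.26 to -0.01). Nr5a1 (0.22 to 0.49) and Cyp17a1 (0.05 to 0.25) stayed above 0. Cyp11a1 (-0.14 to 0.12) and Cyp21a1 (-0.02 to 0.07) took both signs. The alternatives were not all separate checks. The value table repeated the scanner software's ratios, with Hsd3b1 at -0.88 in each, and the single-array values are those averaged in the main result. Other filters and the mean over probes could not move Hsd3b1, which has 1 probe well above background throughout and stayed at -0.59. Under median centring all genes had a median of -0.11. The members' median of 0.00 became 0.08 with the scanner software's ratios, with the value table, and without the second array. The count of all genes 2-fold apart, 40, became 70 with an offset of 16 (87.1% of them lower, against 82.5%) and 175 with the scanner software's ratios and with the value table. What caused these changes was not tested. The count was 59 without the first array (mutant RNA in Cy3) and 48 without the second. No paired analysis was possible because PND3 had 1 pool per genotype and the probe sets of E15.5 had no gene names here, so the E15.5 fit and its alternatives were not run. A slide block was not possible, since both arrays lay on 1 slide. Depth limits Cyp11b2 and the dimmer Nr5a1 probe, whose signals did not stand out from background.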
